A study of Mus musculus with 8 samples.

Results

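The 8 genes described here encode enzymes that hydroxylate or oxidise cholesterol, oxysterols (oxygenated cholesterol) and related steroids: Cyp7a1, Cyp8b1, Cyp27a1, Cyp7b1, Cyp39a1, Cyp46a1, Cyp17a1 and Hsd3b7. They were taken by gene symbol from a deposited table of 34745 genes, and each symbol matched 1 row. Messenger RNA was measured by RNA sequencing in 8 liver samples of age-matched male mice in which hepatocellular carcinoma had been induced with diethylnitrosamine (DEN), a liver carcinogen. All samples date from 8 months after DEN, so no group was free of the carcinogen. The mice carried an injected plasmid, either the empty pT3 vector or pT3 with mouse APOBEC3B, a cytidine deaminase that the sample titles call mA3, and the series title names its effect on this cancer as the question. A tumour and a piece of relatively normal liver, called adjacent here, came from each of vector mice 1 and 9 and mA3 mice 1 and 2. That makes 4 groups of 2 libraries. The numbers in the titles were read as mice. The labels do not otherwise describe the animals, so p-values measure the spread between these samples. They also give no strain, no plasmid delivery route, no promoter for the insert and no hour of sampling.

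In the liver, cholesterol is removed chiefly by conversion to bile acids. The classic route starts with Cyp7a1, its rate-limiting enzyme, and the alternative route starts with side-chain oxidation by Cyp27a1 in mitochondria. Oxysterols formed in this way, or delivered from other organs, are hydroxylated on the ring by Cyp7b1 or Cyp39a1, after which Hsd3b7 oxidises the product. Cyp8b1 then steers synthesis towards cholic acid. Cyp46a1 is best known for oxidising cholesterol in neurons of the brain, and Cyp17a1 for making androgen precursors in gonads. In mice, hepatic Cyp7b1 is known as a male-biased gene and Cyp39a1 as a female-biased one, and Cyp7a1 messenger RNA follows the time of day.

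Total counts per library ran from 12969929 to 22882531. On the first principal component, which held 50.7% of the variance, vector tumour 1 scored -31.8, near the adjacent libraries (-61.2 to -42.5), while the other 3 tumours scored from 60.7 to 102. Apobec3, the gene the insert's title name points to, was at 45.0 and 35.1 CPM (counts scaled per library by its total and TMM factor) in the adjacent libraries labelled mA3, against 2.71 and 9.96 CPM in vector adjacent libraries. In tumours labelled mA3 it was at 10.6 and 15.3 CPM, within or close to the 7.85 and 15.2 CPM of vector tumours, so the tumour labels were not borne out by this gene. Clock genes set the mice apart as well. Dbp, an output gene of the clock, was at 2.43 and 2.54 CPM in the adjacent and tumour libraries of vector mouse 9 and between 107 and 207 CPM in the other 6. Arntl, a core clock gene, was at 29.0 and 38.3 CPM in those of vector mouse 9 and at most 4.35 CPM in the others. These clock genes were chosen after their values were seen.

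Promoter sequences were at hand for 4 of the 8 genes (RefSeq, GRCm38.p6), and those of Cyp8b1 and Cyp27a1 are shown because both genes passed the test in the comparison of tumour with adjacent liver. Each covers the 250 bases before the transcription start, 5′ to 3′ on the gene's strand. Capitals mark letters of the motifs searched on both strands.
Cyp8b1: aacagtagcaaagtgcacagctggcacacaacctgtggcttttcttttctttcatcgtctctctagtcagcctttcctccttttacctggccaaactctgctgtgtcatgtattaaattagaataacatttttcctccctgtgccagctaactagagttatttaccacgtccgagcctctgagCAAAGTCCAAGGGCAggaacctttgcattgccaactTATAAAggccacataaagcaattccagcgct
Cyp27a1: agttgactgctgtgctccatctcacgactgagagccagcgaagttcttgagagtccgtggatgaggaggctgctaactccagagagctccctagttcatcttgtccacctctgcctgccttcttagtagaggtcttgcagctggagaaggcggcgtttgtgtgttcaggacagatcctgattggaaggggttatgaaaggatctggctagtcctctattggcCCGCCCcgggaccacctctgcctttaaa
The Cyp8b1 window lies at chr9:121916306-121916555 on the minus strand. It holds CAAAGTCCA, the motif searched for HNF4A, at 67 to 59 bases before the start, and 0.384% of 32851 promoter windows hold it. CAAGGGCA, a match to the NR5A2 motif CAAGGNCA (5.53% of windows), lies 60 to 53 bases before the start and overlaps the HNF4A match. A TATA box, TATAAA (12.4% of windows), lies 31 to 26 bases before it. The Cyp27a1 window lies at chr1:74713285-74713534 on the plus strand and holds a GC box, GGGCGG, on the opposite strand as CCGCCC, 28 to 23 bases before the start (32.7% of windows). The motifs were chosen after the sequences were seen, and a match describes letters only.

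Levels between genes can be compared as FPKM, the deposited count scaled to gene length and library size, as far as that length holds. The implied length was 3108 bases for Cyp27a1, 2119 for Cyp46a1, 4400 for Cyp7a1 and 2591 for Cyp17a1. The exonic bases in the annotation GENCODE vM21 were 2173, 3287, 4174 and 2769, so the order of these genes and their FPKM ratios depend on the length used. In adjacent liver the 4 main bile acid genes were the most abundant of the 8. Cyp27a1 had a median of 145 FPKM over the 4 adjacent libraries (124 to 224), Cyp7b1 of 169 FPKM (97.4 to 374), Cyp8b1 of 75.6 FPKM (29.8 to 282) and Cyp7a1 of 49.2 FPKM (26.5 to 59.9). The ranges of neighbours in that order overlapped. Below a gap came Cyp39a1 (1.41 to 6.20 FPKM), Cyp46a1 (2.01 to 4.37 FPKM) and Cyp17a1 (1.19 to 8.66 FPKM), whose ranges overlapped as well. Vector tumour 1 kept Cyp27a1, Cyp7b1, Cyp8b1 and Cyp7a1 on top, at 140.02, 69.4, 59.4 and 34.3 FPKM. In the other 3 tumours the order differed. Cyp39a1 was the highest of the 8 in both tumours labelled mA3, at 27.1 and 29.1 FPKM, and Cyp17a1 was the highest in vector tumour 9, at 56.9 FPKM.

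**Figure D1:**
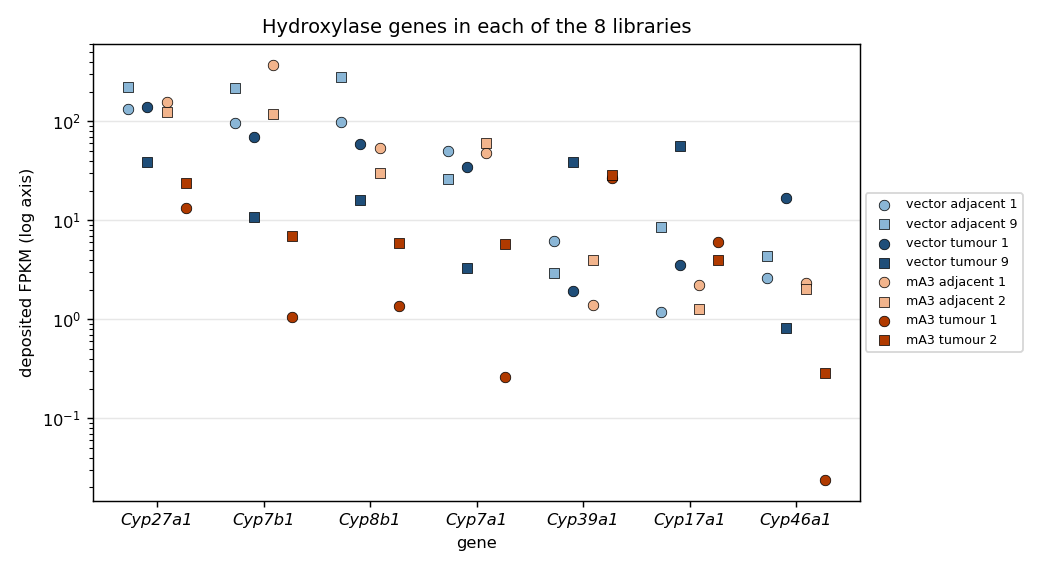
Deposited FPKM (vertical, log axis) of the 7 genes with counts in each of the 8 libraries, coloured by plasmid and tissue, with a circle for the lower and a square for the higher mouse number. Cyp7a1 spans 0.263 to 59.9 FPKM and Cyp7b1 1.05 to 374 FPKM, while Cyp39a1 is above all adjacent libraries in 3 of the 4 tumours.

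Tumour was first compared with adjacent liver over both plasmids. Cyp7b1, Cyp8b1 and Cyp27a1 fell in tumours, and none of the 7 tested genes rose. Of the 7 genes with enough counts to be tested, 3 passed edgeR's quasi-likelihood test at a Benjamini-Hochberg adjusted p under 0.05, all lower in tumours, where 4.64% of all tested genes passed and 1.69% passed in that direction. The median log2 difference of the 7 was -1.98, against 0.01 over all tested genes. These calls depended on the fit. So did the number of all genes that passed, which was lower without most libraries other than vector tumour 1, as listed at the end. In the fit blocked by mouse none of the 3 passed and Cyp17a1 rose (5.86% of all tested genes passed). Without vector tumour 1, 6 of the 7 passed (4 lower, 2 higher), where 10.3% of all tested genes passed, and without any 1 of the other 7 libraries none of the 7 passed. The same 6 passed when both libraries of vector mouse 1 were left out (13.4% of all tested genes), and with both libraries of vector mouse 9 left out, only Cyp27a1 did (5.98%). In bulk tissue, a smaller share of hepatocytes and less RNA of a gene per hepatocyte cannot be told apart.

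Cyp7a1 (ENSMUSG00000028240, chr4:6265612-6275633, minus strand, positions on GRCm38 as for all genes below) was at 245 and 119 CPM in vector adjacent 1 and 9 and at 203 and 259 CPM in mA3 adjacent 1 and 2. It was at 156 and 14.4 CPM in vector tumour 1 and 9 and at 1.13 and 24.3 CPM in mA3 tumour 1 and 2. Vector tumour 1 lay inside the adjacent range, and the other 3 tumours lay below it, as they did in 14% of all tested genes. The log2 difference over the 8 libraries was -2.64 ± 0.95 (SE) and did not pass (edgeR adjusted p = 0.1505). In a fit blocked by mouse it was -3.57 ± 0.79 and did not pass either (edgeR adjusted p = 0.0526). Without vector tumour 1 it was -3.92. Within mice, the adjacent level was 1.57 times the tumour level in vector mouse 1, 8.22 times in vector mouse 9, 179.5 times in mA3 mouse 1 and 10.65 times in mA3 mouse 2. All 4 mice had less Cyp7a1 in the tumour, and mA3 mouse 1 had the widest gap. The lowest adjacent level was that of vector mouse 9, the mouse whose clock genes stood apart, and the part of that in the Cyp7a1 level was not tested.

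Cyp8b1 (ENSMUSG00000050445, chr9:121914356-121916305, minus strand), the enzyme that favours cholic acid, was at 210 and 559 CPM in vector adjacent 1 and 9 and at 100.2 and 57.0 CPM in mA3 adjacent 1 and 2. Tumours had 119 and 31.3 CPM in vector mice 1 and 9 and 2.61 and 10.8 CPM in mA3 mice 1 and 2. Again vector tumour 1 lay among the adjacent libraries and the other 3 tumours below all of them (14% of all tested genes). Cyp8b1 fell by 2.95 ± 0.63 on the log2 scale (edgeR adjusted p = 0.0430, and 0.0626 in a fit blocked by mouse). The adjacent libraries themselves spread widely, and both libraries labelled mA3 were below both vector libraries. No gene of the table, Cyp8b1 included, passed that comparison of plasmids, and the share of all genes in this order was not counted. Per length, Cyp8b1 was at 10.6 times the FPKM of Cyp7a1 in vector adjacent 9, against 0.497 to 1.94 times in the other 3 adjacent libraries.

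Cyp27a1 (ENSMUSG00000026170, chr1:74713574-74737892, plus strand), which oxidises the sterol side chain, was the most even of the 7 genes. Adjacent libraries had 452 and 708 CPM in vector mice 1 and 9 and 475 and 379.6 CPM in mA3 mice 1 and 2. Tumours had 449 and 120.3 CPM in vector mice and 40.9 and 70.9 CPM in mA3 mice. Vector tumour 1 was thus at 0.993 times its adjacent liver, while the other 3 tumours were below all adjacent libraries (14% of all tested genes). Cyp27a1 fell by 1.98 ± 0.45 on the log2 scale (edgeR adjusted p = 0.0489, and 0.0574 in the fit blocked by mouse), and by 2.60 ± 0.36 without vector tumour 1 (adjusted p = 0.00745). Even at its lowest, in mA3 tumour 1, it was at 13.5 FPKM.

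Cyp7b1 (ENSMUSG00000039519, chr3:18071950-18243338, minus strand), the oxysterol hydroxylase that follows Cyp27a1, was at 232 and 481 CPM in vector adjacent 1 and 9 and at 779 and 256 CPM in mA3 adjacent 1 and 2. The 4 tumours had 155, 23.2, 2.21 and 14.2 CPM in vector mice 1 and 9 and mA3 mice 1 and 2. It was the only gene of the 7 with every tumour below every adjacent library, as were 5.32% of all tested genes. It fell by 3.99 ± 0.83 on the log2 scale (edgeR adjusted p = 0.0406, and 0.0585 in the fit blocked by mouse). The adjacent liver of mA3 mouse 1 had the highest level and its tumour the lowest, a ratio of 352, against 1.499 in vector mouse 1, 20.7 in vector mouse 9 and 18.0 in mA3 mouse 2.

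Cyp39a1 (ENSMUSG00000023963, chr17:43667425-43751431, plus strand), the other oxysterol ring hydroxylase, went the opposite way in 3 of the 4 mice. It was at 20.9 and 9.18 CPM in vector adjacent 1 and 9 and at 4.14 and 11.9 CPM in mA3 adjacent 1 and 2. It was at 117 CPM in vector tumour 9 and at 80.7 and 84.2 CPM in mA3 tumour 1 and 2, all above the adjacent range. In vector tumour 1 it was at 6.13 CPM, below that mouse's adjacent liver. The share of all tested genes with those 3 tumours above the adjacent range was not counted. The log2 difference was 2.70 ± 0.80 and did not pass with all libraries (edgeR adjusted p = 0.0947). Without vector tumour 1 it was 3.16 ± 0.44 and passed (adjusted p = 0.00776). Without vector tumour 9 it was 1.03 and without both libraries of vector mouse 9 it was 0.80 ± 0.40 (adjusted p = 0.229), so its size rested on those libraries too.

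Cyp46a1 (ENSMUSG00000021259, chr12:108334377-108362231, plus strand), the cholesterol hydroxylase best known from brain, was low in adjacent liver, at 6.07 and 9.41 CPM in vector mice 1 and 9 and 4.71 and 4.19 CPM in mA3 mice 1 and 2. Vector tumour 1 had 36.8 CPM (642 counts), the highest level of all 8 libraries. Vector tumour 9 had 1.71 CPM, mA3 tumour 2 had 0.580 CPM and mA3 tumour 1 had 0.0492 CPM, which is 1 count against 108 in its adjacent liver (ratio 95.6, 95% exact counting interval 16.8 to 3812). These 3 tumours lay below all adjacent libraries in 14% of all tested genes. Cyp46a1 thus lay above the adjacent range in 1 tumour and below it in 3. Its log2 difference of -1.21 ± 0.87 did not pass (edgeR adjusted p = 0.455). Without vector tumour 1 it fell by 2.96 ± 0.63 (adjusted p = 0.0308). The summed level of 5 neuron markers was 1.76 to 6.90 CPM in adjacent libraries and 1.71 to 2.44 CPM in tumours. In vector tumour 1, where Cyp46a1 was highest, it was 2.41 CPM, against 1.76 CPM in that mouse's adjacent liver, and the part of neurons in the Cyp46a1 level was not tested.

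Cyp17a1 (ENSMUSG00000003555, chr19:46667165-46672974, minus strand), the steroid hydroxylase and lyase, was the only gene of the 7 with more in the tumour than in the adjacent liver in all 4 mice. The share of all tested genes that were higher in the tumour in all 4 mice was not counted. Adjacent libraries had 3.41 and 22.8 CPM in vector mice 1 and 9 and 5.49 and 3.23 CPM in mA3 mice 1 and 2, and tumours had 9.46 and 147 CPM in vector mice and 15.4 and 9.86 CPM in mA3 mice. The tumour level was 2.77, 6.42, 2.81 and 3.06 times the adjacent level in vector mice 1 and 9 and mA3 mice 1 and 2. Vector mouse 9 was highest in both tissues, so the tissues overlapped between mice. The log2 difference was 2.05 ± 0.84 and did not pass (edgeR adjusted p = 0.196), while with the mouse as a block it was 1.82 ± 0.28 and passed (adjusted p = 0.0208). Vector mouse 9 is also the mouse whose clock genes stood apart. Without both its libraries the difference was 1.49 ± 0.33 (adjusted p = 0.0515). Of 6 markers of steroid-making cells, Cyp11a1, Cyp11b1, Hsd3b1 and Nr5a1 were each under 0.5 CPM in every library, while Star was at 1.40 to 4.63 CPM and Cyp21a1 at 0.387 to 6.02 CPM. Their sum was highest in vector tumour 1 (9.63 CPM) and was 3.04 CPM in vector tumour 9, where Cyp17a1 was highest.

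Hsd3b7 (ENSMUSG00000042289, chr7:127800604-127803802, plus strand), which acts after the ring hydroxylases, was listed at 0 in all 8 libraries and was not tested. In GENCODE vM21, 2746 of its 2769 exonic bases are overlapped by other genes. The protein-coding gene Gm49388 on the same strand shares 1717 of them and was also listed at 0, and 9430064I24Rik on the opposite strand shares 1729 and had 0 to 5 counts. How the authors counted reads in overlapping genes is not given in the sources used here, so the value does not show that the gene was silent. The other 7 genes share no exonic base with another gene.

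**Figure D2:**
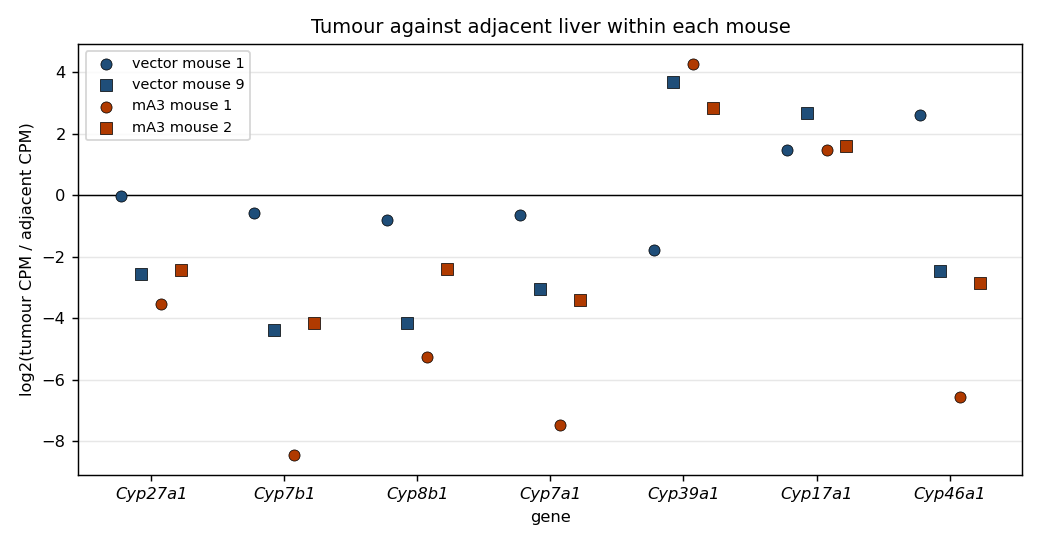
Log2 ratio of tumour to adjacent CPM (vertical) within each of the 4 mice for the 7 genes with counts; the line at 0 means equal levels. Cyp17a1 is above 0 in all 4 mice, Cyp7b1 runs from -0.58 in vector mouse 1 to -8.46 in mA3 mouse 1, and the lowest Cyp46a1 point rests on 1 count.

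Ratios within a library do not depend on how libraries are scaled. In adjacent liver Cyp7b1 was at 15.7 to 265 times the FPKM of Cyp39a1, and in vector tumour 1 at 35.6 times. In the other 3 tumours Cyp39a1 was the higher of these oxysterol hydroxylases, at 3.57 times the FPKM of Cyp7b1 in vector tumour 9, 25.9 times in mA3 tumour 1 and 4.21 times in mA3 tumour 2. Cyp7b1 relative to Cyp27a1, the step before it, was 0.738 to 2.35 in adjacent libraries and 0.0777 to 0.496 in the 4 tumours, with no overlap. Cyp7b1 alone had no overlap either, and the share of gene pairs with such a separation was not counted. Cyp8b1 relative to Cyp7a1 ran from 0.497 to 10.6 in adjacent libraries and from 1.00 to 5.20 in tumours, with full overlap. Over the 8 libraries log2 CPM of Cyp7b1 correlated with Cyp27a1 (Pearson r = 0.970), Cyp8b1 with Cyp27a1 (0.958) and Cyp7a1 with Cyp7b1 (0.939), while Cyp7b1 and Cyp39a1 had r = -0.871. These are descriptions over libraries that fall into tissues and share mice, so no p is given.

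**Figure D3:**
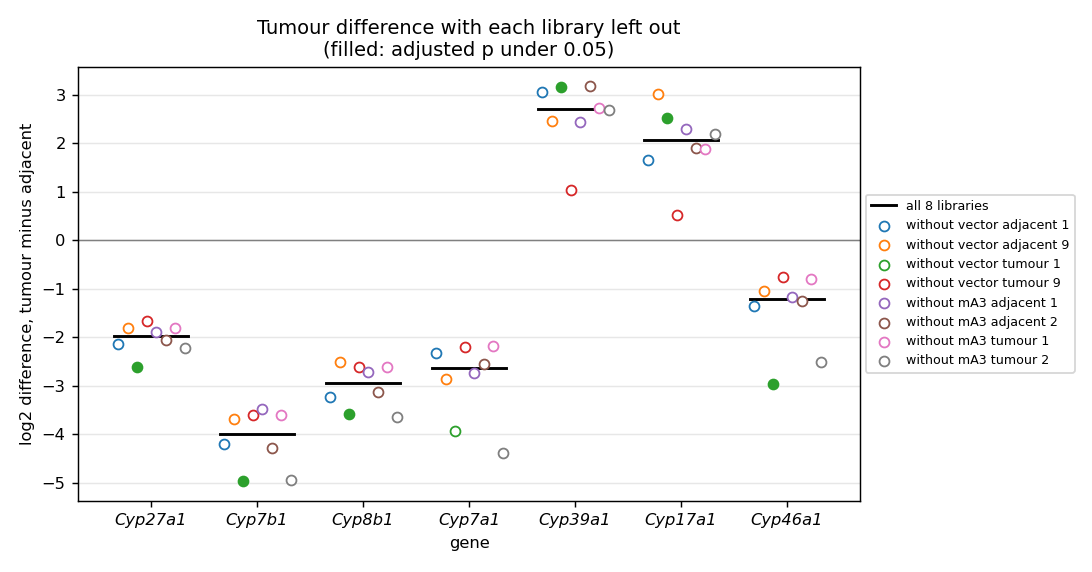
Log2 difference of tumour minus adjacent liver (vertical) for the 7 genes with all 8 libraries (black line) and with each library left out (circles, filled where the adjusted p was under 0.05). Every value keeps its sign, and the filled circles are those without vector tumour 1, in 6 of the 7 genes.

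The enzymes that act after these hydroxylases were counted beside them. Over all tested genes, 4.64% passed with all libraries and 5.86% blocked by mouse, and more did without vector tumour 1, as given above. With all libraries, 49.5% of all tested genes had differences below 0. Of 17 genes of side-chain shortening, conjugation and other later steps, 6 fell, where 1.69% of all tested genes did, none rose and all 17 had differences below 0, with a median log2 difference of -1.32. Scp2, a peroxisomal thiolase and sterol carrier, had 2946 to 4859 CPM in the adjacent samples and 745 to 2041 CPM in tumours (-1.75 ± 0.31, edgeR adjusted p = 0.0272). The others were Hsd17b4 of peroxisomal oxidation (-1.16 ± 0.23), Cyp2c70, which makes muricholic acids in mice (-1.46 ± 0.29), the thiolase Acaa1b (-1.71 ± 0.35), Baat, which joins bile acids to taurine (-1.43 ± 0.31) and the ring reductase Akr1d1 (-1.91 ± 0.44). Blocked by mouse, 8 of the 17 fell and all were below 0, and without vector tumour 1, 9 fell and 15 were below 0. Among 13 bile acid transport genes, 11 were tested. The uptake carriers Slc10a1 (-1.81 ± 0.36, adjusted p = 0.0359) and Slco1b2 (-2.99 ± 0.65, adjusted p = 0.0441) fell, the exporter gene Abcc4 rose (1.09 ± 0.23, adjusted p = 0.0426), and the median was -0.61. In vector mice alone all 11 genes had differences below 0 (47.3% of all tested genes). Abcc4 was at 34.6 and 38.6 CPM in tumours labelled mA3 but at 4.24 and 4.97 CPM in vector tumours, against 4.26 to 6.98 CPM in adjacent liver. Its rise was lost in the fit blocked by mouse (adjusted p = 0.0574), where 4 transport genes fell, as 4 did without vector tumour 1.

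**Figure D4:**
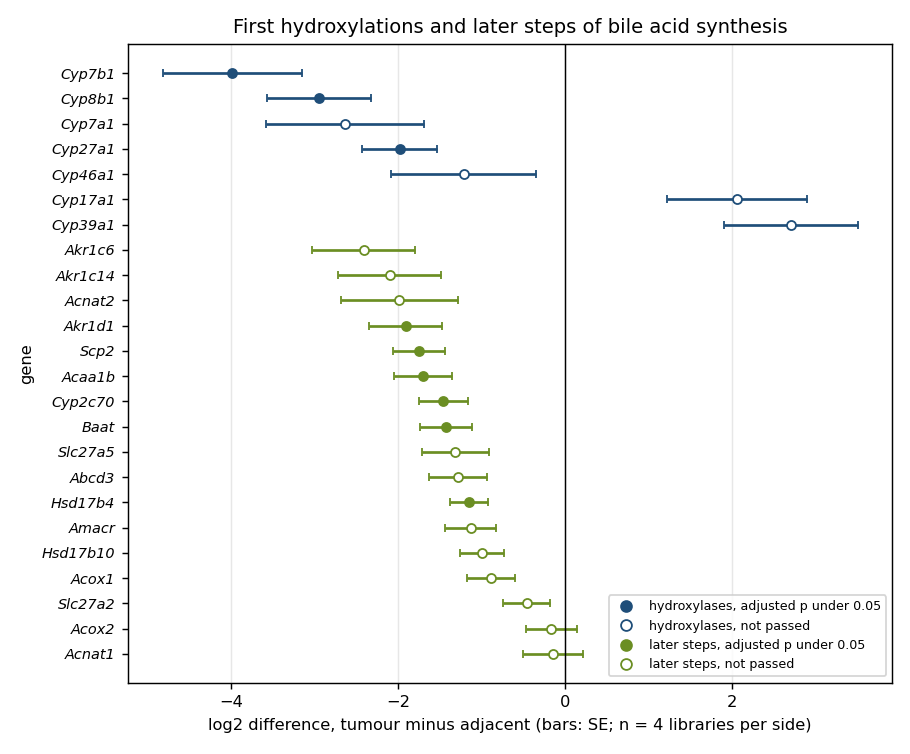
Log2 difference of tumour minus adjacent liver (horizontal, bars are 1 standard error) for the 7 tested hydroxylases and 17 genes of later bile acid steps, filled where the adjusted p was under 0.05. All 17 later genes are below 0, and 6 of them and 3 hydroxylases pass.

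Genes that feed or regulate these enzymes were counted next, against the same shares of all tested genes (4.64%, and 5.86% blocked by mouse). Of 22 genes of oxysterol and cholesterol supply or removal, 20 were tested and the median was 0.16. Sult2b1, a cholesterol sulfotransferase, rose from at most 0.137 CPM to 0.287 to 2.80 CPM (5.89 ± 0.93, edgeR adjusted p = 0.0257), Soat2, which esterifies cholesterol, rose from 38.2 to 53.8 CPM to 79.6 to 153 CPM (1.27 ± 0.22, adjusted p = 0.0262), and Sult2a8, a bile acid sulfotransferase, fell (-3.24 ± 0.72, adjusted p = 0.0463). Blocked by mouse, 4 of the 20 rose. None of 7 redox partners of P450 enzymes passed (median -0.85), and the smallest p-values were those of Cyb5a (-1.06 ± 0.29, adjusted p = 0.0805) and Por (-0.89 ± 0.28, adjusted p = 0.115). None of 26 bile acid sensors and regulators passed, although 21 had differences below 0 (median -0.25), as did 49.5% of all tested genes. The nuclear receptor genes Nr1i3 (-1.27 ± 0.41, adjusted p = 0.120) and Nr1h4, the bile acid receptor (-0.82 ± 0.34, adjusted p = 0.207), had the smallest p-values. Without vector tumour 1 the median was -0.99 for the 7 redox partners and -0.29 for the 26 regulators. Hnf4a was at 372 to 738 CPM in adjacent libraries and 405 to 613 CPM in tumours, and Nr5a2 at 37.6 to 60.3 and 32.2 to 56.1 CPM; they are given because their motifs were searched.

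Genes with sex-biased or zonal expression in mouse liver were counted beside the hydroxylases. With all libraries 49.5% of all tested genes had differences below 0. Of all tested genes 4.64% passed with all libraries and 5.86% blocked by mouse. The share was higher still without vector tumour 1, so part of each larger count below is general to the table. Of 23 male-biased genes other than Cyp7b1, 22 had differences below 0 and 4 fell, namely Mup11 (-3.48), Elovl3 (-3.99), Moxd1 (-5.33) and Ugt2b1 (-2.62), with a median of -2.02. The number that fell was 10 blocked by mouse and 16 without vector tumour 1 (median -3.40). Of 24 tested female-biased genes other than Cyp39a1, 4 rose, namely Prom1 (3.69), Cyp2a4 (3.51), Sult2a2 (5.79) and Cyp2b9 (3.80), Acot3 fell (-2.95), and the median was -0.03, while blocked by mouse 4 rose and 4 fell (median 0.03). Of 12 tested pericentral genes, which mark the zone around the central vein, Cyp2c37 (-3.28), Axin2 (-1.97) and Oat (-3.35) fell and the median was -2.48, while without vector tumour 1, 10 of the 12 fell. Among 14 periportal genes Cdh1 (2.85) and Apoa4 (3.24) rose, none fell and the median was -0.46, while blocked by mouse 2 rose and 2 fell, and without vector tumour 1, 3 rose and 3 fell. Srd5a1, which reduces testosterone, was the only one of 10 tested steroid synthesis genes to pass and fell by 2.51 on the log2 scale, and 3 fell blocked by mouse as well as without vector tumour 1. None of 11 proliferation genes passed, with all 11 above 0 (median 2.12), and Cdk1 (1.93, edgeR adjusted p = 0.0534) and Melk (2.82, adjusted p = 0.0546) came closest. Blocked by mouse, 6 of the 11 rose, Cdk1 (adjusted p = 0.0294) and Melk (adjusted p = 0.0487) among them, and 7 rose without vector tumour 1. None of 16 clock genes passed either (median 0.34, with -0.57 without vector tumour 1), with the smallest p-values for Per1 (0.94, adjusted p = 0.189) and Per2 (1.10, adjusted p = 0.216).

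Markers of other cell types moved with tissue in part. The shares of all tested genes that passed were again 4.64%, 5.86% blocked by mouse, and more without vector tumour 1. The summed level of 8 hepatocyte markers was 37508 to 105191 CPM in adjacent libraries and 88579 to 200885 CPM in tumours, and Apoa1 among them rose (1.66, edgeR adjusted p = 0.0450). That sum weighs the most abundant markers most. Of the 8, 3 had differences below 0, with a median log2 difference of 0.06. The median was 0.55 in vector mice and -0.52 in mice labelled mA3, where 5 of the 8 were below 0. Bile duct markers summed to 41.6 to 57.0 CPM in adjacent libraries and 103 to 614 CPM in tumours, with Spp1 the 1 of 5 tested that rose (2.39, adjusted p = 0.0489). Macrophage and Kupffer markers summed to 113 to 292 CPM and 71.7 to 127 CPM, and Clec4f (-1.66) and Timd4 (-2.47) fell among 7. With all libraries and no block, no marker passed among 8 of stellate cells and fibroblasts (149 to 218 CPM summed in adjacent libraries, 99.7 to 305 CPM in tumours), 6 of endothelium (168 to 219 and 152 to 248 CPM), 4 tested of T cells (3.56 to 6.49 and 2.76 to 4.77 CPM), 4 of B cells (11.4 to 23.8 and 17.0 to 60.3 CPM), 5 of neurons or 2 tested of steroid-making cells (2.06 to 5.73 and 3.04 to 9.63 CPM). Without vector tumour 1, 4 of the 8 stellate and fibroblast markers (Acta2, Col1a1, Col1a2 and Col3a1), the endothelial marker Lyve1 and 2 bile duct markers rose, and the hepatocyte marker Ass1 fell. Blocked by mouse, the rises of Apoa1 (edgeR adjusted p = 0.0588) and Spp1 (adjusted p = 0.0745) were lost, the B cell marker Jchain rose (adjusted p = 0.0189), and 4 of 7 macrophage markers and Ass1 fell. The part of these cells in the hydroxylase levels was not tested.

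Within each plasmid the comparison rested on 2 tumours and 2 adjacent libraries. In vector mice none of the 7 genes passed, nor did any gene of the table (0%). At an unadjusted p under 0.05, 1 of the 7 passed there and 1397 of 15009 genes did, and DESeq2 called 0 of the 7 and 226 genes. The log2 differences in vector mice were -2.35 ± 0.86 for Cyp8b1, -2.0005 ± 1.08 for Cyp7b1, -1.03 ± 0.62 for Cyp27a1 and -1.10 ± 1.28 for Cyp7a1. In mice labelled mA3 none of the 7 passed, where 1.19% of all tested genes did, and 6 of the 7 had an unadjusted p under 0.05, as did 3002 of 15009 genes (DESeq2 called 5 of the 7 and 1563 genes). There the differences were larger in size for these 4 genes, at -3.55 ± 0.91, -5.98 ± 1.29, -2.93 ± 0.66 and -4.18 ± 1.44, with edgeR adjusted p-values from 0.0633 to 0.160. For Cyp46a1 the log2 difference was 1.32 ± 1.14 in the vector pair of mice and -3.75 ± 1.37 in the pair labelled mA3. The test of that difference, an interaction of tissue and plasmid, gave -5.06 ± 1.78 for Cyp46a1 and -3.98 ± 1.53 for Cyp7b1 (edgeR adjusted p = 0.842 for each), which were the 2 of the 7 with an unadjusted p under 0.05. None of the 7 and no gene of the table passed it (0%). An unadjusted p under 0.05 was found for 749 genes, and DESeq2 called 0 of the 7 and 4 genes. Without vector tumour 1 the differences in vector mice were -3.62 for Cyp8b1, -3.94 for Cyp7b1 and -2.27 for Cyp27a1. Those for Cyp7a1 and Cyp46a1 were -3.66 and -2.17. The interaction was then -1.58 for Cyp46a1 and -2.03 for Cyp7b1, so the contrasts between plasmids rested in part on that library.

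The plasmids were then compared within a tissue. In tumours labelled mA3 the log2 difference from vector tumours was -5.86 ± 1.44 for Cyp46a1, -3.48 ± 0.91 for Cyp8b1, -2.35 ± 0.64 for Cyp27a1 and -3.44 ± 1.15 for Cyp7b1, and these 4 had an unadjusted p under 0.05 (2127 genes of the table did). None passed in edgeR (adjusted p from 0.295 to 0.312), nor did any gene of the table (0%), while DESeq2 called 4 of the 7 and 487 genes. Vector tumour 1 was the highest tumour for Cyp7a1, Cyp7b1, Cyp8b1, Cyp27a1 and Cyp46a1. Without it the differences were -2.37 for Cyp46a1, -2.22 for Cyp8b1, -1.11 for Cyp27a1 and -1.4977 for Cyp7b1, and that of Cyp7a1 was -0.18 in place of -2.74. Cyp39a1 (0.42 ± 1.06), Cyp7a1 (-2.74 ± 1.35) and Cyp17a1 (-2.63 ± 1.19) had wider errors relative to their size. In adjacent liver, where Apobec3 itself was higher in the libraries labelled mA3, Cyp8b1 differed by -2.29 ± 0.86 and was the 1 of the 7 with an unadjusted p under 0.05, and the other 6 differed by -1.57 to 0.54 (edgeR adjusted p = 1 for all 7). No gene of the table passed there (0%), 155 had an unadjusted p under 0.05, and DESeq2 called none. The standard errors there ran from 0.61 for Cyp27a1 to 1.26 for Cyp7a1 on the log2 scale.

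The genes whose log2 CPM was most like that of each hydroxylase over the 8 libraries were sought among 9382 genes with a mean of at least 5 CPM. For Cyp7a1 they were the drug-metabolising P450 gene Cyp2c29 (r = 0.991), the uptake carrier gene Slco1a1 (0.987) and Rgn (0.986). For Cyp7b1 they were the fatty acid hydroxylase genes Cyp4a12b (0.997) and Cyp4a12a (0.991) and the urinary protein gene Mup13 (0.995), which belong to families of close copies. For Cyp8b1 they were Creb3l3, a liver transcription factor gene (0.978), Nfkbia (0.974) and Emc8 (0.971), and for Cyp27a1 Marc2 (0.995, named through its identifier), the carboxylesterase gene Ces1b (0.992) and Csrp2 (0.992). Cyp39a1 was most like Ppfibp1 (0.982), Aig1 (0.975) and Tnks2 (0.972). Cyp46a1 was most like Pus7 (0.985), Lrit2 (0.985) and Mmaa (0.984), and Cyp17a1 most like Stra6l (0.974), Leng9 (0.964) and Adgra2 (0.962). The points share tissue and mouse, and the 3 named were picked as the highest of 9382.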

How the data were processed

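RNA sequencing of 8 mouse liver libraries was analysed. Per the file headers, the deposited table holds read counts and FPKM values per gene and library. Per the labels' protocols, Trizol RNA and standard Illumina libraries were used. For the aligner, the counter and the use of strand, the answer is not given in the sources used here. The submitters' processing notes name Agilent Feature Extraction 10.7, a program for arrays, and build mm8. Of 34745 identifiers, 34267 were in GENCODE vM21 (GRCm38), with no chromosome that differed, and in 81.6% both ends lay within 1 bp. In 7555 genes with at least 100 counts everywhere, deposited FPKM and counts implied 1 length per gene within 0.0009%.

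Counts were fitted with edgeR 4.0.16 (R 4.3.3; filterByExpr by group, 15009 genes; TMM; 1 coefficient per group; quasi-likelihood test; 4 residual degrees of freedom; biological coefficient of variation 39.1%). The threshold was an adjusted p of 0.05 (Benjamini-Hochberg, across the genes tested). Standard errors come from the F statistic. No CPM or FPKM entered this test. The script was tested on simulated data.

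The 12 pathway lists and 9 marker lists, like the 8 genes, were chosen with earlier results of these data known. From each list, up to 6 passing genes with the smallest p are named, or the 2 with the smallest p where none passes. For likeness, the 3 highest Pearson correlations are named, without predicted genes, Riken and accession-like symbols or pseudogenes. Same-numbered tissues of a plasmid were taken to come from 1 mouse, which rests on the titles alone. Their deviations from group means correlated at 0.107 (vector) and 0.175 (mA3). Alternatives were another normalization, no filter, DESeq2 1.42.0, limma 3.58.1 (voom, and log2 FPKM plus 0.1 or 1), the mouse as a block, and each library left out. Leaving out both libraries of vector mouse 1 or 9 was chosen after seeing the data. Leaving out 1 library can leave a group with 1 library, which is then assumed to vary like the others.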

Additional observations from a re-analysis of the deposited data

Results flagged for a closer look

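Because groups of 2 cannot be checked, the 4 tumours and the 4 adjacent libraries of each of the 7 genes with counts were each treated as 1 set, and a library was picked out when its gap to the next, divided by the range, was above 0.829. Chance picks about 1 in 20 such sets if values are normally distributed, and 5 of 14 were picked. CPM was not put on a log scale here, and the sets share libraries, so 5 of 14 cannot be held against 1 in 20. Vector tumour 1 stood above the other tumours in Cyp7a1 (156 CPM, the next 24.3 CPM; gap over range 0.850), in Cyp7b1 (155 CPM, the next 23.2 CPM; 0.863) and in Cyp46a1 (36.8 CPM, the next 1.71 CPM; 0.955). For Cyp17a1, vector mouse 9 stood above the others in both tissues, with 147 CPM in its tumour (the next 15.4 CPM; 0.957) and 22.8 CPM in its adjacent liver (the next 5.49 CPM; 0.884).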

How the results depend on the processing

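In the comparison of tumour with adjacent liver, none of the 7 tested genes changed sign under 17 alternatives. The log2 differences ran from -4.39 to -2.18 for Cyp7a1, -5.17 to -3.28 for Cyp7b1, -3.85 to -2.18 for Cyp8b1, -2.74 to -1.48 for Cyp27a1, 0.80 to 3.53 for Cyp39a1, -3.09 to -0.54 for Cyp46a1 and 0.53 to 3.01 for Cyp17a1. The number that passed was less stable. It was 3 of 7 and became 7 with no filter on low counts, 5 with DESeq2, 1 with the replicate block (the mouse as a block), 6 without both libraries of vector mouse 1, 1 without both libraries of vector mouse 9, and 0 to 6 with each library left out, with 6 without vector tumour 1 and 0 without any of the other 7. Adjusted p-values with 1 library left out ran from 0.0193 to 0.130 for Cyp7b1, 0.0222 to 0.142 for Cyp8b1 and 0.00745 to 0.195 for Cyp27a1. Without a filter 23237 genes were fitted and the estimated prior degrees of freedom were infinite, which gives smaller p-values.

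In vector mice, 0 genes passed and 4 did with no filter. In mA3 mice, 0 became 7 with no filter, 5 with DESeq2, 6 without both libraries of vector mouse 1 as well as without both of vector mouse 9, 1 with limma on log2 FPKM plus 0.1, 1 with limma on log2 FPKM plus 1, and 0 to 5 with each library left out, with 5 without vector tumour 1 or vector tumour 9. Between tumours, 0 became 6 with no filter, 4 with DESeq2, 5 without both libraries of vector mouse 9, 1 without both of vector mouse 1 and 0 to 2 with each library left out, with 2 without vector tumour 9. Between adjacent libraries 0 became 1 and for the interaction 0 became 3, both with no filter. The cause was not tested. Apart from DESeq2, whose counts of all genes are given above, the numbers of all genes that passed in these settings are not given here. The counts in these comparisons therefore cannot be read as particular to these genes.

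Signs changed in 19 of 700 fits of a gene under an alternative, all of them with 1 library or both libraries of a mouse left out, and none in tumour against adjacent liver over both plasmids. With 1 library left out, in vector mice Cyp39a1 ran from -1.31 (without vector tumour 9) to 2.95, Cyp46a1 from -2.17 (without vector tumour 1) to 2.24 and Cyp17a1 from -0.47 (without vector tumour 9) to 4.50. Between tumours Cyp39a1 ran from -0.51 (without vector tumour 1) to 3.75 and Cyp17a1 from -3.54 to 0.42 (without vector tumour 9). Between adjacent libraries Cyp7a1 ran from -0.088 (without vector adjacent 9) to 0.96, Cyp7b1 from -0.50 (without mA3 adjacent 1) to 1.15 and Cyp17a1 from -2.38 to 0.36 (without vector adjacent 9). For the interaction Cyp8b1 ran from -2.55 to 0.076 (without vector tumour 1) and Cyp17a1 from -2.99 to 1.99 (without vector tumour 9). Without both libraries of vector mouse 1, Cyp46a1 was -2.44 in vector mice, Cyp39a1 -0.51 between tumours, and for the interaction Cyp39a1 was -0.32 and Cyp8b1 0.59. Without both of vector mouse 9, Cyp39a1 was -1.78 in vector mice, Cyp17a1 0.42 between tumours, Cyp17a1 0.36 and Cyp7a1 -0.089 between adjacent libraries, and Cyp17a1 0.063 for the interaction. No block could be fitted between plasmids, which share no mouse. The FPKM scalings moved the median of all genes by 0.126 and 0.112 between adjacent libraries.

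Over all genes, 696 passed in tumours against adjacent liver. The count was 2450 with no filter, 1860 with DESeq2, 458 with limma-voom, 2092 without both libraries of vector mouse 1, 1622 without vector tumour 1, 240 without vector adjacent 1, 260 without vector tumour 9, 136 without mA3 tumour 2, 6 without mA3 tumour 1 and 0 without mA3 adjacent 1 or mA3 adjacent 2. Groups of 2 libraries, with 4 residual degrees of freedom, limit the precision, and depth limits Cyp46a1 in mA3 tumour 1, at 1 count.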
